A study of Mus musculus with 14 samples.

Results

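Myh7b, Myh9, Myh10, Myh11 and Myh14 encode class II myosin heavy chains, and they were followed by gene symbol through the counts of mouse cortex. They are 5 of the 34193 symbols in the table and 5 of its 14 myosin heavy chain genes. RNA was sequenced from the cortex of 14 C57BL/6J mice aged 8 weeks. Of these, 7 were Heterozygous KO for Dnmt3a, a DNA methyltransferase gene, and 7 were wild type littermates, with 4 females and 3 males in each genotype. The labels give no promoter, Cre driver or other allele, and no treatment. Each sample title starts with a number, here called the title prefix. The prefixes 046, 047, 048 and 139 cover 8 animals (set A), and 119 and 141 cover 6 animals (set B), with both genotypes equally represented in each set and 1 sex per prefix. What the prefix stands for is not given in the labels.

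Myh7b was selected on its genotype difference in these same animals, and the other heavy chains were listed as its relatives with that contrast already known. All genotype values below are therefore a description of these animals and not a test. Differences between the prefix sets and between the sexes were not used in the choice and were tested. The sets, however, were formed because some animals had stood apart in earlier work on these data. Tests between the sets are therefore not independent of the data.

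Class II myosins are the motors that slide and tension actin filaments. A pair of heavy chains dimerises through a long coiled-coil tail, and each head binds actin, hydrolyses ATP and carries an essential and a regulatory light chain. The sarcomeric heavy chains build the thick filaments of heart and skeletal muscle. The non-muscle heavy chains Myh9 (IIA), Myh10 (IIB) and Myh14 (IIC) form small bipolar filaments in most cells. In neurons Myh10 is known for its part in growth cone and dendritic spine shape. Myh11 is the heavy chain of smooth muscle and in brain marks the muscle coat of vessels. Myh7b is an ancient relative of the slow cardiac heavy chains that is also transcribed in brain, and it carries the microRNA gene Mir499 within it.

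Total counts per animal lay between 8951835 and 14335406. Dnmt3a itself ranged from 124 to 164 CPM (counts scaled to the library size, with TMM factors) in wild-type animals and 84.3 to 118 CPM in heterozygotes, without overlap. Markers of excitatory neurons summed to 6172 to 7717 CPM over the animals, those of astrocytes to 9104 to 17512 CPM, and all 8 markers of each type exceeded 3 counts in at least 1 animal. The animals of set B stood apart from those of set A on the first principal component, which held 34.3% of the variance. The sets were formed with such a separation already known. Wild type replicates 6 and 7, both females of prefix 141, lay farthest out, at -33.1 and -30.9 against -15.8 to 20.1 for the other animals. They also had the highest astrocyte marker sums, 17512 and 17030 CPM, against at most 14227 CPM in any other animal.

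The 5 genes differed widely in abundance. Per kilobase of annotated exon, Myh10 stood at 30.1 ± 3.90 CPM (SD, n = 14), Myh9 at 7.48 ± 0.694 and Myh14 at 3.97 ± 0.617. Their ranges did not overlap, since the lowest animal for Myh10 had 22.6, the highest for Myh9 had 8.53 and the highest for Myh14 had 5.38 CPM per kilobase, above which the lowest Myh9 animal lay at 6.17. Myh7b, at 0.506 ± 0.160 CPM per kilobase, and Myh11, at 0.441 ± 0.0929, came far below and did not differ beyond their spread. Of all counts on the 14 heavy chain genes, Myh10 took 69.1%, Myh9 21.1%, Myh14 6.25%, Myh7b 0.728% and Myh11 0.727%. All 5 passed the filter on low counts, with at least 21 counts in every animal.

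The order of the scarce heavy chains differed between the genotypes. In wild-type animals Myh7, the slow cardiac heavy chain, had a level of 0.667 ± 0.125 CPM per kilobase, Myh11 one of 0.485 ± 0.103 and Myh7b one of 0.366 ± 0.0543 (SD, n = 7 each). In heterozygotes Myh7b came first with 0.646 ± 0.0847, followed by Myh7 with 0.580 ± 0.107 and Myh11 with 0.398 ± 0.0602 (SD, n = 7 each). Among these neighbours the SD bands of Myh7b and Myh7 overlap in heterozygotes. In wild-type animals the band of Myh11 overlaps both that of Myh7 and that of Myh7b.

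Dnmt3a methylates cytosines, mainly in CpG pairs and in neurons also outside them, so the CpG content at the starts of these genes is shown as context. DNA methylation was not analysed here. RefSeq (GRCm38.p6) gave 300 bases around the start, 250 before it and 50 from it on, for 4 of the 5 genes, Myh11 having no entry in the table used. The counts are on mm9, and these sequences were matched by symbol. The starts of Myh7b, on the plus strand at chr2:155610993-155611292, and of Myh10, on the plus strand at chr11:68691665-68691964, are printed with each CpG (letters CG, the same on both strands) in capitals.
Myh7b: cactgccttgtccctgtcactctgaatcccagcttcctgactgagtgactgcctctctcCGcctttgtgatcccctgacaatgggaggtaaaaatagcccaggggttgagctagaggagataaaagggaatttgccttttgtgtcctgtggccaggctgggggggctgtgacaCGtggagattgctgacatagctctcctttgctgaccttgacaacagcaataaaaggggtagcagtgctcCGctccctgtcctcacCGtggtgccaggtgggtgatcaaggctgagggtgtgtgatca
Myh10: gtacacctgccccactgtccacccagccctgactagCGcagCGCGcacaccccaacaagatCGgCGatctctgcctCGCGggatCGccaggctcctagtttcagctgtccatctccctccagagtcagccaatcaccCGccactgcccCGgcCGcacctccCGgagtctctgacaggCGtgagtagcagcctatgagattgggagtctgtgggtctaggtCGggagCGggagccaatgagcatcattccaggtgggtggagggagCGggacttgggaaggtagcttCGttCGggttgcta
The Myh7b window holds 4 CpGs and is 54.7% G or C, and 38.0% of the 32851 windows of this length in the table hold as few or fewer. The windows of Myh10, Myh14 and Myh9 hold 18, 18 and 19 CpGs, and 71.9%, 71.9% and 73.5% of windows hold as few or fewer. At least 1 CpG is found in 94.6% of all windows, and the median is 7.

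The microRNA genes inside heavy chain genes are shown because a count on the host gene does not measure them. RefSeq places Mir499 within Myh7b on chromosome 2, Mir208a within Myh6 and Mir208b within Myh7, the latter pair on chromosome 14. Their heart-enriched mature forms, with the seed (bases 2 to 8) in capitals, are these.
miR-499-5p: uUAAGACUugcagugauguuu
miR-208a-3p: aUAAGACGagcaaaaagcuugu
miR-208b-3p: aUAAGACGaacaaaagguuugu
The seeds of miR-208a-3p and miR-208b-3p are the same, and that of miR-499-5p differs from it at base 8 only. A further microRNA gene inside a heavy chain gene, Mir6923 within Myh3, has no row among the counts. The rows Mir499, Mir208a and Mir208b hold 0 counts in all 14 animals. The libraries were not made for small RNA, so these zeros say nothing about the mature forms.

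Myh7b was higher in heterozygous cortex than in wild-type cortex. In set A, wild type replicates 1 to 4 had 2.92, 2.21, 2.02 and 2.42 CPM, and heterozygous replicates 1 to 4 had 4.77, 4.56, 4.36 and 5.09 CPM. In set B, wild type replicates 5 to 7 had 2.39, 2.15 and 2.91 CPM, and heterozygous replicates 5 to 7 had 3.71, 3.69 and 3.81 CPM. No wild-type animal reached the lowest heterozygote, and the heterozygotes of set B were below those of set A. The means were 2.43 ± 0.360 and 4.28 ± 0.562 CPM (SD, n = 7 each), a fitted fold of 1.75 (95% interval 1.43 to 2.14) with sex as a term. In a bulk sample, a change in the number of cells that use the gene and a change in its RNA per cell cannot be told apart.

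**Figure D1:**
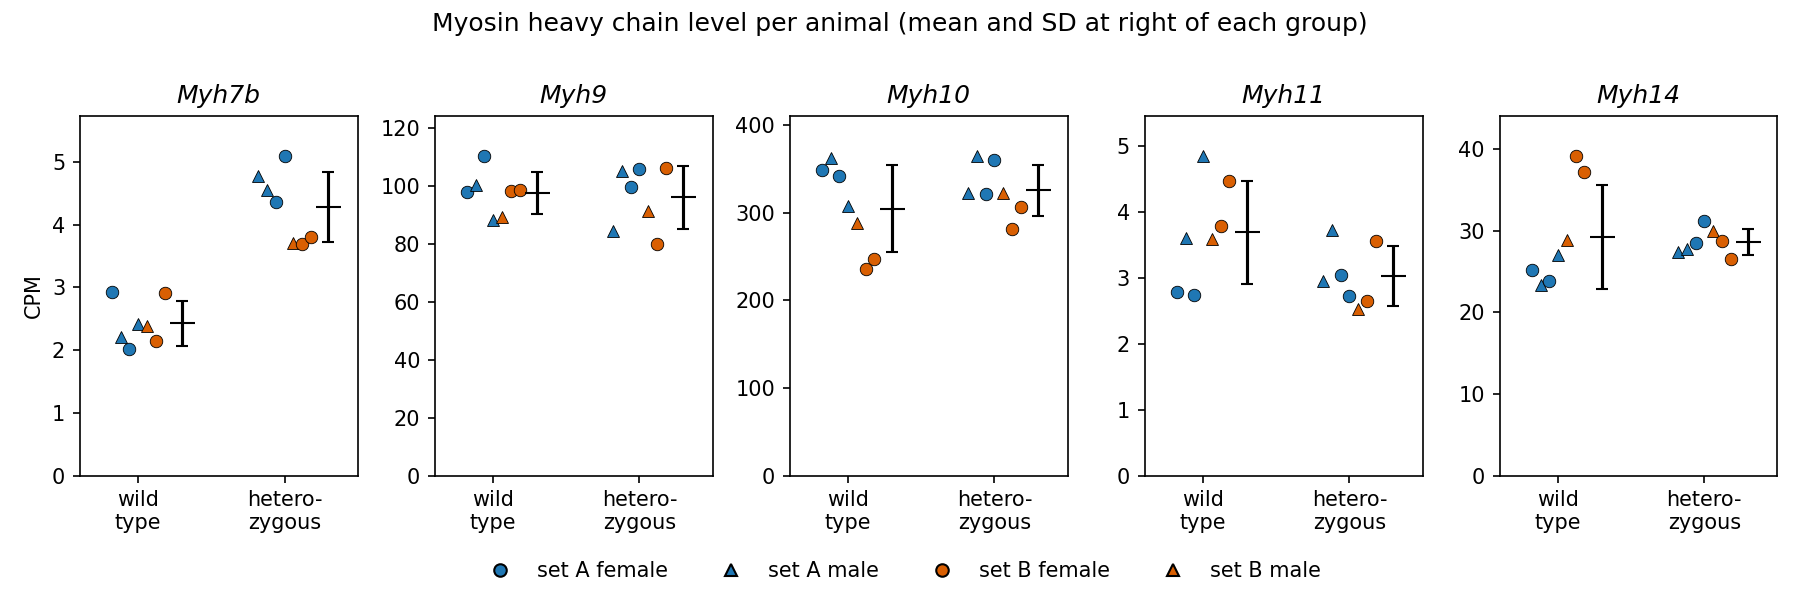
CPM of the 5 heavy chains in each animal by genotype, with colour for the prefix set, shape for sex, and mean and SD beside each group. Heterozygotes lie between 3.69 and 5.09 CPM for Myh7b and wild-type animals between 2.02 and 2.92 CPM, whereas the groups overlap for the other genes.

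Across the 13815 genes tested, 17 (0.123%) had genotype ranges without overlap and 11 (0.0796%) had all heterozygotes above all wild-type animals. Myh7b is 1 of these 11, and the other 4 heavy chains are not among the 17. In edgeR's quasi-likelihood fit the log2 difference of Myh7b was 0.81 (SE 0.137), and its adjusted p of 0.0627 missed the threshold of 0.05. Only 0.0145% of genes, 2 in number, passed it, and Myh7b had rank 3 by p. DESeq2 on the same comparison gave 0.81 at adjusted p = 0.00390, which passed. Blocking on the title prefix instead of using sex, the difference was again 0.81 (SE 0.146), at adjusted p = 0.0157, with 0.405% of genes called. With the prefix set as a term beside sex it was 0.81 at adjusted p = 0.0175, with 0.109% of genes called. The authors' deposited table lists Myh7b with a log2 fold change of 0.34 and adjusted p = 0.00237, and it calls 0.191% of its genes. How that fold change was estimated is not given, so its size may not be comparable with the fitted 0.81. Without wild type replicate 1 the fit with sex gave 0.86 at adjusted p = 0.0440 by edgeR, and without any other single animal it missed the threshold. All of these come from the contrast that Myh7b was selected on. Over the same contrast 7 of 8 excitatory neuron, 7 of 8 inhibitory neuron and 6 of 8 oligodendrocyte markers were positive, against 50.9% of all genes. In turn 8 of 8 astrocyte and 7 of 8 microglia markers were negative. None of these markers was called with sex as a term. The median log2 difference was 0.12 for the excitatory and -0.19 for the astrocyte markers. The median sum of excitatory markers was 6561 CPM in wild-type animals and 6531 CPM in heterozygotes, and that of astrocyte markers 10558 and 10158 CPM. Such sums weigh the most abundant markers most, and for excitatory neurons that is Camk2a (-0.20), the only negative 1 of the 8. With the block 1 astrocyte marker was called lower, the angiotensinogen gene Agt (-0.52, adjusted p = 0.0234 by edgeR, against 0.978 with sex as a term). The part of cell mix in the Myh7b value was not tested.

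The difference had the same sign in each of the 6 title prefixes. Heterozygous over wild-type ratios of Myh7b were 2.07 in prefix 046, 2.53 in 047, 1.97 in 048, 1.49 in 139, 1.55 in 119 and 1.48 in 141. Prefix 141 rests on 2 animals per genotype and the other prefixes on 1. Of all tested genes, 2.38% had a higher heterozygous mean in all 6 prefixes. Ratios ran from 1.55 to 2.07 in the male prefixes 046, 048 and 119 and from 1.48 to 2.53 in the female prefixes 047, 139 and 141.

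**Figure D2:**
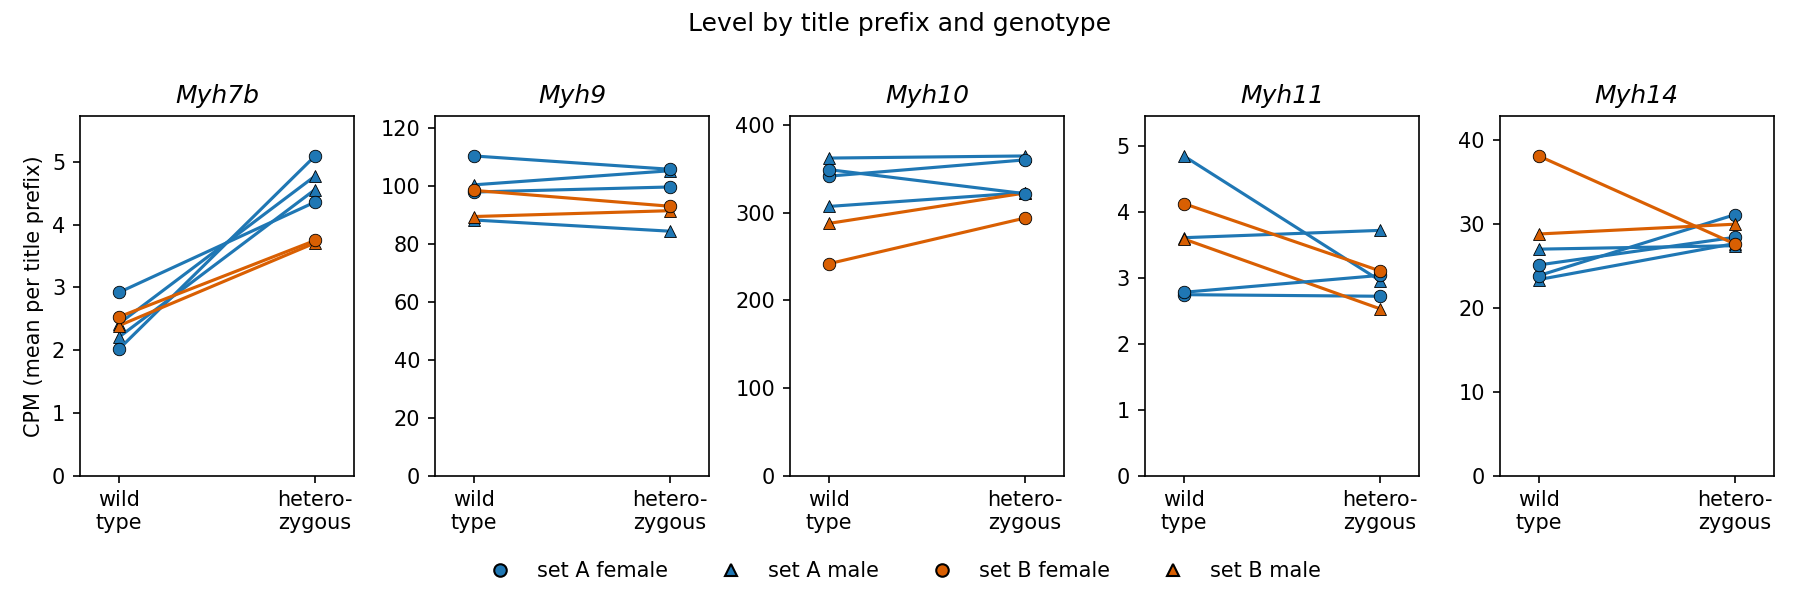
Mean CPM in wild-type and heterozygous animals of each title prefix, joined by a line, with colour for the prefix set and shape for sex. All 6 lines rise for Myh7b, by a ratio of 1.48 to 2.53, and for Myh14 the line of prefix 141 falls while the other 5 rise.

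Myh7b is measured on few reads. Its counts ran from 21 in wild type replicate 6 (exact Poisson 95% interval 13.0 to 32.1) to 63 in heterozygous replicate 1 (48.4 to 80.6). Such intervals cover counting error only. Counting alone gives a coefficient of variation of 18.4% at the mean wild-type count and 14.1% at the mean heterozygous count. The observed values were 14.8% and 13.1%, so the spread of Myh7b between animals of a genotype was no larger than counting error. Myh11, with 24 to 50 counts, varied by 21.3% in wild-type and 15.1% in heterozygous animals, against 15.1% and 16.7% from counting. Myh10, with 2313 to 4927 counts, varied by 16.4% in wild-type and 8.95% in heterozygous animals, against 1.64% and 1.62% from counting, so its spread is far above counting error.

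The reads of Myh7b could be shared with a gene on the other strand. In GENCODE M21 (GRCm38) the exons of Trpc4ap, which encodes a TRPC4-associated protein, overlap those of Myh7b by 37 bases, 0.558% of its 6634 exon bases. The library kit marks strand, but no source used here says whether the counting did. Trpc4ap had 976 to 2029 counts over 8753 exon bases, against 21 to 63 counts for Myh7b. The share of bases therefore does not give the share of Myh7b reads that could come from Trpc4ap, which was not measured. Trpc4ap had a genotype log2 difference of 0.038 (SE 0.0909). The nearest protein-coding genes on either side, Gss (glutathione synthetase) and Edem2 (a mannosidase-like protein of the endoplasmic reticulum), had 0.12 (SE 0.0991) and -0.080 (SE 0.0858). None of these 3 genes passed the threshold by edgeR, with adjusted p of 0.984, 0.978 and 0.978.

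RefSeq also lists Myh14 as an older name of Myh7b. The table has a row for each symbol, at 2.02 to 5.09 CPM for Myh7b and 23.4 to 39.1 CPM for Myh14, so the rows are not copies of each other.

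Striated muscle tissue in the dissection was looked for, since sarcomeric heavy chains are its main product. Of 19 muscle markers, 7 never exceeded 3 counts in any animal: Actc1, Ckm, Mb, Tnnt3, Myl1, Myl3 and Mylpf. Summed over the 19, wild-type animals had 23.5 to 30.2 CPM and heterozygotes 25.7 to 31.6 CPM, and Acta1 and Tnnc1, with mean counts of 125 and 78.1, made up much of it. The 5 muscle markers abundant enough to test had log2 differences with a median of 0.15, and none passed.

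Myh9, the non-muscle heavy chain IIA, ran from 88.1 to 110 CPM in wild-type animals with a median of 98.1, and from 79.8 to 106 CPM in heterozygotes with a median of 99.5. The groups overlapped over most of their range. The log2 difference was -0.023 (95% interval -0.18 to 0.13) with sex as a term, -0.0078 in set A alone and -0.044 in set B alone.

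Myh10, the non-muscle heavy chain IIB, ran from 236 to 362 CPM in wild-type animals with a median of 307, and from 281 to 365 CPM in heterozygotes with a median of 323. The lowest values, 236 and 247 CPM, were those of wild type replicates 6 and 7. The log2 difference was 0.097 (95% interval -0.099 to 0.29) in all animals, 0.0093 in set A alone and 0.24 in set B alone. Within set B the animals alone gave adjusted p = 0.00301 by edgeR, where 16.6% of all genes passed. Without wild type replicates 6 and 7 the difference over the remaining animals was -0.017. With the title prefix block it was 0.11 (adjusted p = 0.381 by edgeR).

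Myh14, the non-muscle heavy chain IIC, ran from 23.4 to 39.1 CPM in wild-type animals with a median of 27.0, and from 26.5 to 31.1 CPM in heterozygotes with a median of 28.4. Wild type replicates 6 and 7 were the highest, at 39.1 and 37.1 CPM, and the next wild-type animal had 28.8 CPM. In set A every heterozygote, at 27.4 CPM or more, lay above every wild-type animal, at 27.0 CPM or less. The share of all genes that separate within set A was not counted. The log2 difference was -0.025 in all animals, 0.21 in set A alone (adjusted p = 0.999 by edgeR, where 0% of genes passed) and -0.29 in set B alone (adjusted p = 0.0297 by edgeR). Without wild type replicates 6 and 7 it was 0.16 over the remaining animals. The heterozygotes of both sets had like levels, 28.7 ± 1.69 CPM for the 4 of set A and 28.4 ± 1.78 CPM for the 3 of set B (SD).

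Myh11, the smooth muscle heavy chain, ran from 2.74 to 4.84 CPM in wild-type animals with a median of 3.60, and from 2.53 to 3.72 CPM in heterozygotes with a median of 2.96. The highest animals were wild type replicates 4 and 7, at 4.84 and 4.46 CPM, and 3 of 7 heterozygotes lay below every wild-type animal. The log2 difference was -0.27 (95% interval -0.59 to 0.051), with -0.15 from set A alone and -0.45 from set B alone. In set B every heterozygote lay below the wild-type animals, but narrowly, with the nearest at 3.56 and 3.59 CPM. In set A the groups overlapped. How many of all genes separate within a set this small was not counted, so the separation in set B is only a description. Of 12 markers of smooth muscle and pericytes 10 were tested, and all 10 had a negative difference while none passed. Among those with a mean count of at least 20 the largest were Tagln (-0.52), an actin-binding protein of smooth muscle, and Kcnj8 (-0.43), a potassium channel subunit of mural cells. Summed, the 12 had 148 to 175 CPM in wild-type animals and 130 to 162 CPM in heterozygotes. Endothelial markers had a median of -0.13 with 8 of 10 negative and none called. The part of the vessel wall in the Myh11 value was not tested.

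**Figure D3:**
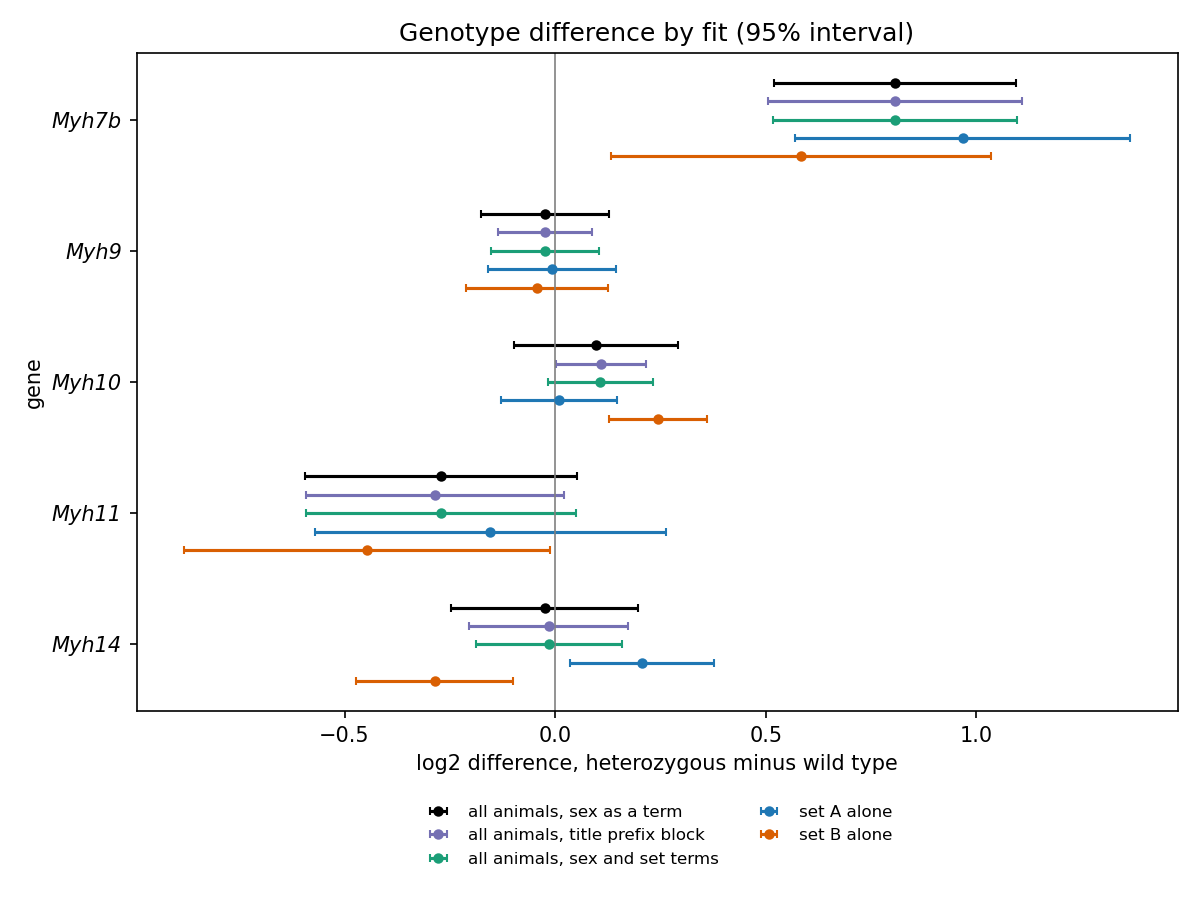
Log2 difference of heterozygous minus wild-type animals with its 95% interval for each heavy chain, in fits of all animals with sex, with the title prefix block or with sex and set, and in each set alone. Myh7b lies between 0.58 and 0.97 in all 5 fits, Myh9 stays within 0.044 of 0, and Myh14 has 0.21 in set A and -0.29 in set B.

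By edgeR with sex as a term, none of the 4 relatives of Myh7b passed, with adjusted p from 0.978 to 0.987, and with the block their adjusted p lay between 0.381 and 0.958. In the authors' deposited table their log2 fold changes were -0.017 for Myh9, 0.091 for Myh10, -0.11 for Myh11 and -0.0074 for Myh14. Adjusted p there lay between 0.662 and 0.985, and the sizes may not be comparable with the fits. By edgeR with sex as a term, the highest upper bound of the 95% intervals of these 4 genes was 0.29, for Myh10. The lowest bound was -0.59, for Myh11.

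The difference between the prefix sets was not used to choose the genes. The sets themselves were formed because the animals of set B had stood apart in earlier work on these data. A difference between them over many genes was therefore partly built in. Set B holds only 2 title prefixes and set A 4, and the fit takes the 14 animals as independent. Animals of a prefix deviated together, but they also share set and sex, and pairs of unlike prefixes were not compared. P-values for the sets are too small if the prefix is the unit. Between sets B and A 38.8% of all tested genes differed, 19.1% higher and 19.6% lower in set B, and 2 of the 5 heavy chains did, a share near that background. Myh10 was lower in set B, at 280 ± 33.3 CPM over 6 animals against 341 ± 21.7 CPM over the 8 of set A (SD), with a log2 difference of -0.28 (SE 0.0619, adjusted p = 0.00101 by edgeR). Myh14 was higher in set B, at 31.7 ± 5.13 CPM against 26.8 ± 2.55 CPM, with a log2 difference of 0.23 (SE 0.0855, adjusted p = 0.0373 by edgeR).

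By title prefix, the mean of Myh10 was 305 CPM in prefix 119 and 268 CPM in 141, against 315 to 364 CPM in the 4 prefixes of set A. The mean of Myh14 was 29.4 CPM in 119 and 32.9 CPM in 141, against 25.5 to 27.5 CPM. The values of these genes rest unequally on the outlying wild-type animals of prefix 141. Without wild type replicates 6 and 7 the set difference of Myh10 was -0.20 (adjusted p = 0.0127 by edgeR), and that of Myh14 was 0.064 (adjusted p = 0.543 by edgeR). The Myh14 call was also lost without any single one of 6 animals, namely wild type replicates 1, 2, 3, 6 or 7 or heterozygous replicate 5, with log2 differences from 0.17 to 0.24. Astrocyte markers moved with the set: 7 of 8 were called higher in set B, and their sum was 12303 to 17512 CPM there against 9104 to 10558 CPM in set A. Of 8 excitatory neuron markers 5 were called lower in set B and 1 higher, with a list median of -0.24. Their sum was 6266 to 7717 CPM there against 6172 to 6561 CPM. The marker called higher, Camk2a (0.41), had the largest mean count of the 8 (45555), so it weighs most in this sum. The part of both marker lists in these differences was not tested.

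Myh7b (-0.17, 95% interval -0.47 to 0.12), Myh9 (-0.093, interval -0.22 to 0.038) and Myh11 (0.084, interval -0.25 to 0.41) did not pass between the sets, with adjusted p from 0.259 to 0.720 by edgeR. A test over all 6 prefixes, which called 33.2% of genes, called Myh10 (adjusted p = 0.00140 by edgeR) and none of the other heavy chains (0.102 to 0.908).

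The mix of non-muscle heavy chains was described as shares. Per exon length, Myh10 made up 74.2% ± 1.12 of the sum of Myh9, Myh10 and Myh14 in the 8 animals of set A and 69.6% ± 4.20 in the 6 of set B (SD). Myh14 made up 8.40% ± 0.922 and 11.5% ± 2.51. Within set B the share of Myh10 was 66.7% ± 4.34 for wild-type animals and 72.4% ± 1.09 for heterozygotes (SD, n = 3 each), and within set A it was 74.6% ± 1.22 and 73.9% ± 1.07 (SD, n = 4 each). These shares were not tested. The lowest share of Myh10 in any animal was 63.5% and the highest 76.0%.

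No heavy chain passed the test between females and males. The log2 differences, female minus male, were 0.041 for Myh7b (95% interval -0.25 to 0.34), 0.11 for Myh9 (-0.022 to 0.24), -0.066 for Myh10 (-0.19 to 0.061), -0.15 for Myh11 (-0.48 to 0.18) and 0.083 for Myh14 (-0.094 to 0.26). Adjusted p by edgeR lay between 0.589 and 0.950, and 0.123% of all genes passed.

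Whether the genotype difference itself was unlike between sets or sexes was tested by interaction terms, and 0 of the 5 genes passed either test. For the sets, edgeR called 0 of 13815 genes (0%) and DESeq2 274, and 2036 had an edgeR p below 0.05 before adjustment. For the sexes, edgeR called 0 genes (0%) and DESeq2 1, and 316 had an edgeR p below 0.05 before adjustment. Myh14 came nearest: its genotype difference was 0.50 lower on the log2 scale in set B than in set A (interaction -0.50, SE 0.133, adjusted p = 0.108 by edgeR). That value passed without wild type replicate 4 or 5 (-0.56 and -0.63, adjusted p = 0.0193 and 0.00657 by edgeR), and was -0.22 (adjusted p = 1.00 by edgeR) without wild type replicates 6 and 7. The difference of Myh7b was 0.39 lower in set B (interaction -0.39, 95% interval -0.97 to 0.20) and 0.14 lower in females (interaction -0.14, interval -0.75 to 0.46), and neither passed. The interval for the set reaches past the size of the genotype difference itself.

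**Figure D4:**
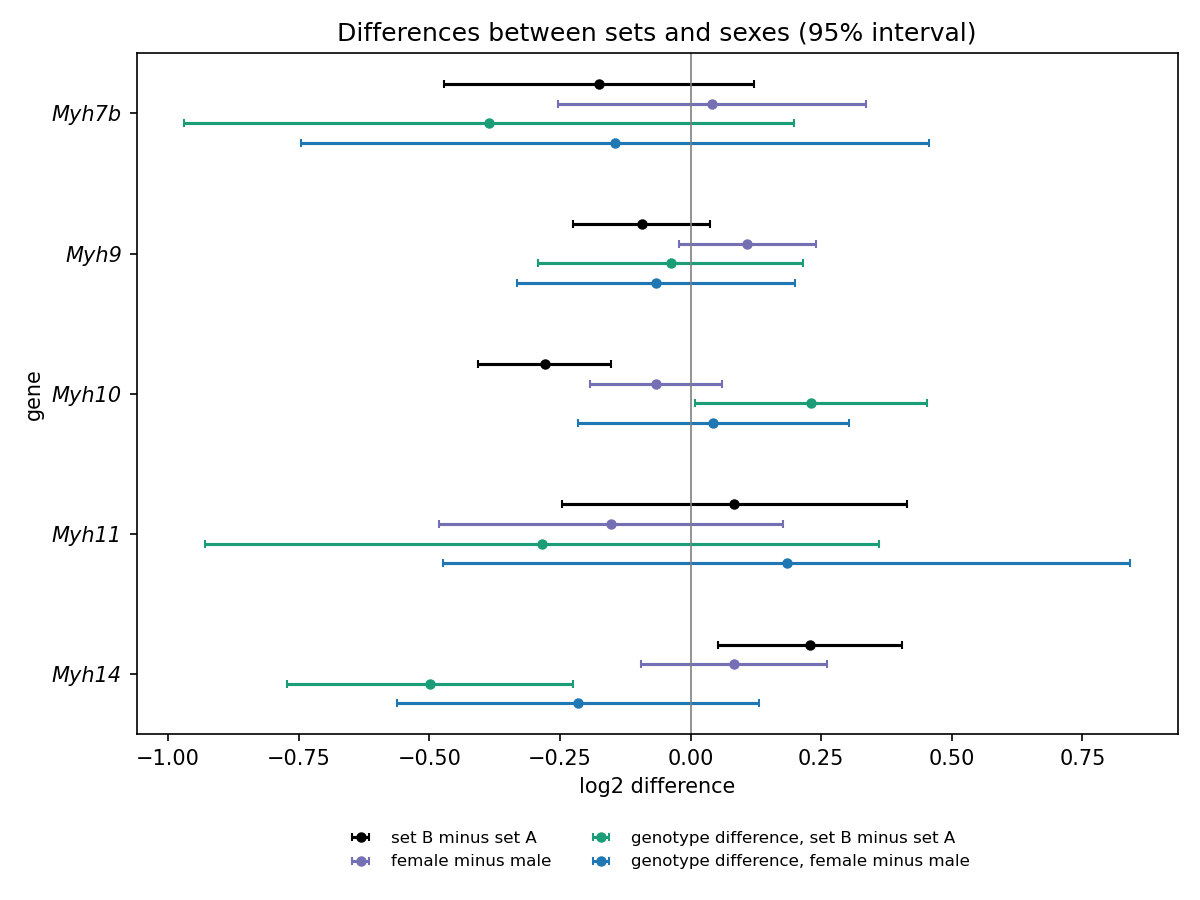
Log2 differences with 95% intervals for set B minus set A, females minus males, and the difference of the genotype effect between sets and between sexes. The set difference lies below 0 for Myh10 (-0.28) and above 0 for Myh14 (0.23), and the interaction of Myh14 with set lies at -0.50.

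The other heavy chain genes were scarce. Of the 10 sarcomeric heavy chains in the table, Myh7b, Myh7 and Myh3 were abundant enough to test, and the 7 that were not had at most 20 counts in any animal and 433 counts in all. The close copies Myh1, Myh2, Myh4 and Myh8 lie in this group, and short reads could be split among them. Myh3, the embryonic skeletal heavy chain, had 10 to 39 counts and a log2 difference of 0.54 (SE 0.250), and Myh7 had 36 to 89 counts and -0.19. Neither passed by edgeR with sex as a term or with the block. Myh3 was highest in heterozygous replicates 1 and 2, at 2.96 and 3.21 CPM, while heterozygous replicates 3, 5, 6 and 7 lay within the range of wild-type animals.

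Genes that work with these motors were described from 8 lists of 91 symbols, Myh genes included. Of these, 66 were tested, and 0 passed between genotypes by edgeR with sex as a term (0.0145% of all genes, and the lowest adjusted p of the 66 was that of Myh7b). With the title prefix block 3 passed, Myh7b, Myo5c and Mylk (0.405% of all genes), and with the set term 1 passed, Myh7b (0.109% of all genes). The median log2 difference of the 66 was -0.016, against 0.0024 for all genes. Positive values made up 43.9% of the 66 and 50.9% of all genes. Between the prefix sets 24 of the 66 passed, a share near the 38.8% of all genes.

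Among light chains and their modifiers, 1 gene passed, and with the block only. Of 12 light chain genes 5 were tested, with a median of 0.081 and none called with or without the block. Myl4, the atrial and embryonic essential light chain, had 0.30 (SE 0.110), and Myl9, the smooth muscle regulatory light chain, had -0.24 (SE 0.143). Among 11 tested of 13 light chain kinases the median was 0.021. Mylk, the smooth muscle light chain kinase, had -0.39 (SE 0.143, adjusted p = 0.978 by edgeR) with sex as a term, and fell with the block (-0.39, adjusted p = 0.0444 by edgeR). Mylk was also higher in set B than in set A (0.41, adjusted p = 0.00229 by edgeR). Mylk3, the cardiac kinase, had 0.18. The 7 genes of the myosin phosphatase group had a median of -0.056 and none was called, with Ppp1r14b, an inhibitor of the phosphatase, at -0.20 and Ppp1r12b, a targeting subunit, at -0.14.

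The 3 genes of the myosin chaperone list had negative values. Smyd1 had -0.29 (SE 0.256), the general chaperone Unc45a -0.019 and the muscle chaperone Unc45b -0.34 on a mean count of 14.1. None of these 3 passed. Of 18 actins and actin filament partners 15 were tested with a median of 0.042, and none was called. The largest with a mean count of at least 20 were Tpm2, a tropomyosin, at 0.25 and Acta1, skeletal actin, at 0.20.

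Among 18 tested of 24 unconventional myosins, which work as single motors or cargo carriers, the median was -0.057. Myo5c, a class V cargo motor known mainly from secretory epithelia, had 0.79 (SE 0.220, adjusted p = 0.883 by edgeR) with sex as a term and rose with the block (0.82, adjusted p = 0.0458 by edgeR), on 15 to 51 counts per animal. Myo1f, a class I myosin of immune cells, had -0.49 (SE 0.158) and did not pass, beside Tyrobp, a microglial adaptor, at -0.48. Of the 8 microglia markers 7 had negative values and none passed. Their median was -0.11, and Tyrobp lay farthest from 0. The part of microglia in the Myo1f value was not tested.

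**Figure D5:**
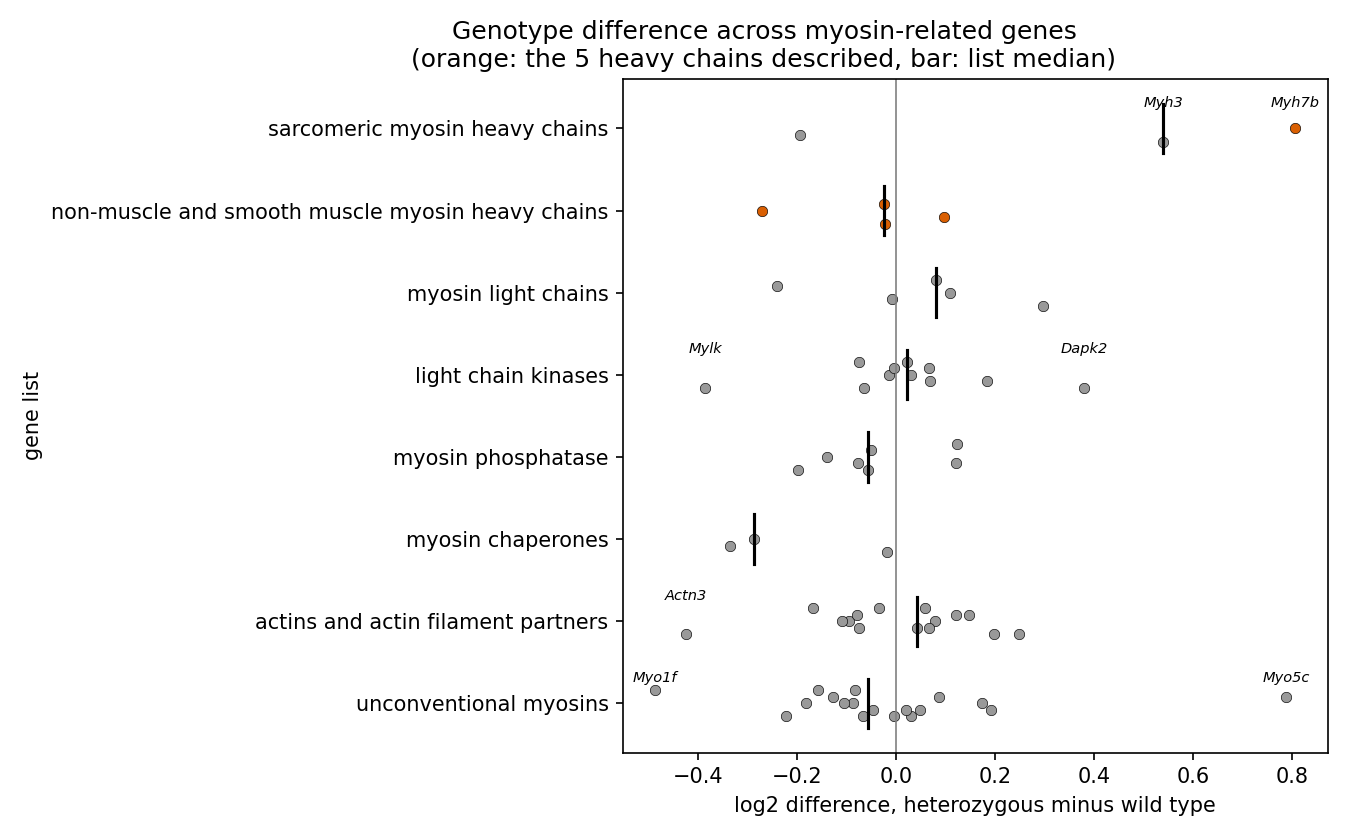
Log2 difference of heterozygous minus wild-type animals for every tested gene of 8 lists of myosin-related genes, 1 point per gene, with the list median as a bar and names for the outlying genes. Myh7b (0.81) and Myo5c (0.79) lie farthest to the right, and the medians of the light chain, kinase, phosphatase and actin lists lie within 0.081 of 0.

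The genes most like each heavy chain were ranked by the smaller of the Pearson correlations of log2 CPM within set A (8 animals) and within set B (6 animals), among 11453 genes with a mean count of at least 50. Being the highest of so many, these correlations are a description. For Myh7b they were Scnn1a, a subunit of the epithelial sodium channel (r = 0.923 within set A, 0.931 within set B), Pamr1 (0.909 and 0.944) and Fbxo27, an F-box protein gene (0.899 and 0.897). Their genotype log2 differences were 0.60, 0.30 and 0.42, so the animals of a set share the genotype split in all of these correlations. Myh10 had the closest relatives, Atp2b2, a plasma membrane calcium pump (0.962 and 0.961), Kcnq3, a potassium channel subunit (0.960 and 0.963), and Ppp1r9a, the spine scaffold neurabin (0.954 and 0.976).

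For Myh9 the closest were Numb, a regulator of Notch (0.852 and 0.875), Eml6 (0.781 and 0.785) and Tmem215 (0.821 and 0.771). Myh11 had 24 to 50 counts, and its spread in heterozygotes was no larger than counting error. Its closest genes were Csf1r, the microglial growth factor receptor (0.934 and 0.911), the small RNA gene Scarna6 (0.827 and 0.886) and Phgdh, an enzyme of serine synthesis (0.808 and 0.856). For Myh14 they were the mitochondrial ribosomal protein gene Mrps34 (0.899 and 0.914), Isca2, an iron-sulphur cluster assembly factor (0.954 and 0.868), and Ost4, a subunit of the oligosaccharyltransferase (0.876 and 0.863). Among the heavy chains themselves, Myh7b and Myh14 had r = 0.858 within A and -0.656 within B, and Myh10 and Myh14 had -0.120 and -0.876, while Myh7b and Myh9 had -0.123 and -0.121. Myh7b and Myh14 both separate the genotypes within set A, so they share the genotype split there. Within set B, wild type replicates 6 and 7 were the lowest for Myh10 and the highest for Myh14. Correlations without these animals were not computed.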

How the data were processed

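The authors deposited 1 table of whole-number read counts per gene symbol for 14 animals, with 4 columns of their own genotype comparison: the log2 fold change, the test statistic (a score), the p-value and its adjusted form, per the file headers. Trim Galore, Bowtie, STAR and bedtools with the mm9 build are named in the submitters' processing notes, with no roles. Genotype, sex and prefix come from the labels. Genes were filtered with filterByExpr (13815 tested, 99.9% of counts), scaled by TMM and tested with edgeR 4.0.16 (R 4.3.3, limma 3.58.1) at a Benjamini-Hochberg adjusted p of 0.05 over all genes. DESeq2 1.42.0, RLE factors, no filter, left-out animals, the set term and the prefix block were alternatives. Log2 CPM used a prior count of 2. The labels describe littermates with a title each, and p-values measure the spread between these samples. Depth sets the precision, which is lowest for Myh7b and Myh11, the heavy chains of the 5 with fewest counts.

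Deviations from the genotype means correlated at 0.200 to 0.517 in all 9 pairs of animals of the same prefix, which also share sex and set. Pairs of unlike prefixes within a set were not compared, so a part of the prefix beyond the set was not shown. The block is given where it changes a call. The genotype fit with sex as a term was tested on simulated data, the other fits were not. Exon lengths come from GENCODE M21 (GRCm38), another build than the counts. The genes and lists were chosen with earlier results of these data known. Beside the 5 heavy chains, the neighbours of Myh7b and the 3 most alike genes are named. So are list genes called between genotypes in a fit. For the 8 myosin-related lists the pair of largest changes (mean count of at least 20) is named. For the cell type marker lists only some genes of these pairs are named. Dapk2 and Actn3 in the plot of lists, Unc45b, Tnnc1, Myh7 and the scarce markers were named after their values were seen.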

Additional observations from a re-analysis of the deposited data

How the results depend on the processing

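Myh7b stayed higher in heterozygotes under every alternative run, from 0.58 in set B alone to 0.97 in set A alone, and between 0.76 and 0.86 when 1 animal was left out (adjusted p by edgeR 0.0440 to 0.191). The replicate block by title prefix called 56 genes between genotypes against 2, and it brought Myh7b past the threshold (adjusted p = 0.0157 by edgeR) and changed no call of the other 4 heavy chains. The genotype count was 12 by DESeq2 (Myh7b adjusted p = 0.00390), 15 with the set term, 0 in set A alone, 2304 in set B alone and 1 without wild type replicates 6 and 7. The sex count of 17 became 50 by DESeq2, 261 with no filter and 1 with no set term. The interaction with set called 274 genes by DESeq2 and 381 with no filter, where Myh14 passed (adjusted p = 0.0270 by edgeR), against 0. The interaction with sex called 1 and 5, against 0. Leaving out 1 animal gave 1 to 4 genes for genotype, 4654 to 5483 for set, 2 to 53 for sex, 0 to 850 for the interaction with set and 0 for that with sex. The causes were not tested. The counts over all genes in each set alone and all analyses without wild type replicates 6 and 7 were chosen after seeing the data.

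Some small differences changed sign. The genotype difference of Myh14 was 0.21 in set A alone and 0.16 without wild type replicates 6 and 7, where that of Myh10 was -0.017, the set difference of Myh11 -0.048 and its interaction with set 0.016. Leaving out 1 animal spanned 0 for the genotype differences of Myh9 (-0.061 to 0.026) and Myh14 (-0.076 to 0.050), the interaction of Myh9 with set (-0.14 to 0.079), and the interactions with sex of Myh9 (-0.15 to 0.016), Myh10 (-0.031 to 0.12) and Myh11 (-0.0078 to 0.36).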
